A study of Mus musculus with 4 samples.

Results

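Expression of 9 complement genes, C1ra, C2, C3, C4b, Cfb, Cfp, Serping1, C3ar1 and C5ar1, was examined in gWAT, the gonadal white fat of the mouse. They were taken by gene name from a table of 45706 genes, and all 9 were found. RNA sequencing was performed in 2 mice on a high-fat diet that received canagliflozin (HFD+Cana) and in 2 mice on the same diet without it (HFD). All 4 were C57B6/N mice fed HFD32 for 2 months, and the methods of the study state that male mice were used. Canagliflozin, an inhibitor of the renal glucose transporter SGLT2, was mixed into the food at 0.03% by weight for 7 days. Both groups therefore carry the obesity of the diet, and no mice on normal chow are among these samples. The labels give no age. The methods describe replicates as biological, so the p-values compare single mice. The spread behind each p-value was estimated partly from other genes, and not only from the mice at that gene. Values are TPM, a read estimate corrected for transcript length and scaled so that every sample has the same total, and levels can be compared between genes. TPM keeps no record of read number, and the depth of each sample is unknown.

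Complement is a cascade of proteases in plasma and tissue fluid that marks particles for removal, recruits leukocytes and perforates membranes. The classical route starts with C1q and its proteases C1r and C1s, the lectin route with sugar-binding proteins, and the alternative route with C3 itself, factor B and factor D. All of them meet in convertases, enzyme complexes that cleave C3. Adipocytes are a known source of factor D, also called adipsin, and liver is the main source of most circulating complement proteins. In bulk tissue, fewer cells of a type and less RNA per cell cannot be told apart.

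The 9 genes fell into a high and a low set of levels in every mouse. Serping1, C3, C4b and Cfb ranged from 368 to 805 TPM, and the other 5 genes from 21.1 to 129 TPM. Together the 9 genes took 0.279% and 0.280% of all TPM in the HFD+Cana mice and 0.319% and 0.276% in the HFD mice, and these groups overlapped. The 4 high genes made up 85.2% and 87.8% of the sum of the 9 genes in HFD+Cana, against 89.1% and 89.2% in HFD. Serping1 ranked 1, Cfb 4 and C3ar1 9 in each of the 4 mice. The ranges over mice overlapped between Serping1 and C3, between C3 and C4b, and between each neighbouring pair from Cfp down to C3ar1, so the order within these runs was not separated from the spread between mice. The ranges of C4b and Cfb, and those of Cfb and Cfp, did not overlap.

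**Figure D1:**
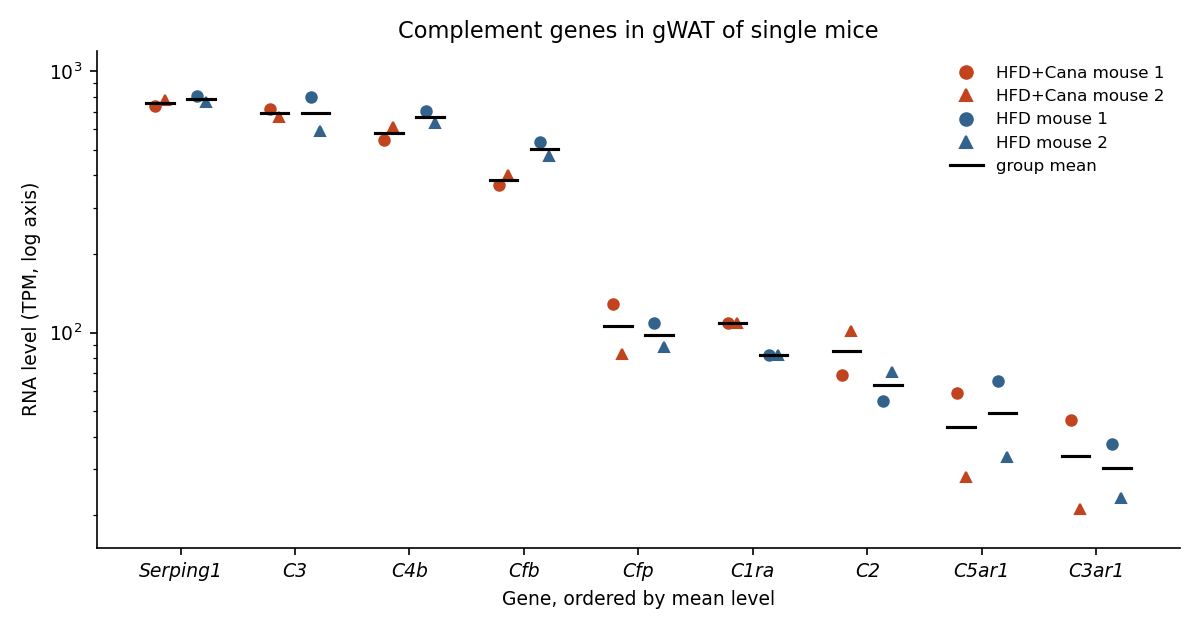
RNA level (TPM, log axis) of each of the 9 genes in single mice, HFD+Cana left of HFD, with a bar for the group mean of 2 mice. Serping1, C3, C4b and Cfb lie between 368 and 805 TPM, and the groups are apart only in C4b, Cfb and C1ra.

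No gene of the 9 passed an adjusted p of 0.05 between HFD+Cana and HFD in limma, a linear model with pooled estimates of spread, applied to log2(TPM + 1) of 13788 genes averaging 1 TPM or more. All 9 genes were among them, and their adjusted p ranged from 0.242 to 0.979. Over all genes tested, 0.0435% passed as higher in HFD+Cana and 0% as lower. At an unadjusted p under 0.05, C1ra was higher and Cfb lower in HFD+Cana, against a background of 5.32% of all genes higher and 5.45% lower. The groups did not overlap in C1ra, with HFD+Cana higher, nor in Cfb and C4b, with HFD+Cana lower, and they overlapped in the other 6 genes. Of all genes tested, 44.1% did not overlap, 24.3% as higher and 19.8% as lower, so 3 of 9 genes are no more than the background. The median log2 difference was 0.017 over the 9 genes and 0.019 over all genes tested. With 2 mice in each group, the smallest p that an exact two-sided permutation test allows is 0.33. Differences are HFD+Cana minus HFD on the log2(TPM + 1) scale, and adjusted p-values are from limma with Benjamini-Hochberg adjustment over the 13788 genes.

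The first protease of the classical route had the steadiest difference. C1ra, which encodes C1r, the protease that activates C1s within the C1 complex, had 109.3 and 109.2 TPM in the HFD+Cana mice, against 81.9 and 82.1 TPM in the HFD mice. The mice of each group were nearly identical, with 109 ± 0.0428 TPM in HFD+Cana and 82.0 ± 0.105 TPM in HFD (SD, n = 2 each). The log2 difference was 0.41 (standard error 0.073, limma adjusted p = 0.242). Leaving out any 1 mouse kept it at 0.41, which follows from the near-identical values within each group and adds no support. C1ra lies on chromosome 6 of GRCm38 from 124512405 to 124523443 on the plus strand, with 11 exons. Of its 31-base words, 56.9% also occur in transcripts of the neighbouring copy C1rb, so reads could be split between them, but C1rb was listed at 0 in both HFD mice and at 0.120 and 0.0157 TPM in HFD+Cana. The sum of C1ra and C1rb gave the same log2 difference of 0.41.

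C1s1, which encodes the partner protease C1s, was not among the 9 genes and belongs to a list of 50 other complement genes. It lies 6901 bases beyond C1ra, on the opposite strand, and had 303 and 336 TPM in HFD+Cana, against 215 and 225 TPM in HFD. Its log2 difference was 0.53 (standard error 0.094, adjusted p = 0.238 from limma). The ratio of C1ra to C1s1 was 0.361 and 0.325 in HFD+Cana and 0.381 and 0.365 in HFD, so the ratio was lower in HFD+Cana without overlap, by a narrow gap. This ratio was chosen after the values were seen and carries no test. Most markers of adipose progenitors, fibroblast-like cells that are a known source of C1r and C1s, had higher values in the same mice. Of 8 progenitor markers, 6 had a positive and 2 a negative difference. Before adjustment (p under 0.05), 5 were higher and 1 lower in HFD+Cana, against 5.32% and 5.45% of all genes tested, and 0 after it in limma. Their summed level was 1982 and 2118 TPM in HFD+Cana, against 1586 and 1733 TPM in HFD. Most of this sum was Dcn alone, with 1152 and 1374 TPM in HFD+Cana, against 871 and 993 TPM in HFD. The part of progenitors in the values of C1ra and C1s1 was not tested.

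The 250 bases before the start sites of C1ra and C1s1 are shown because these neighbours carried the 2 smallest p-values among complement proteases, and those of Cfd because its difference was the largest of the complement genes. Sequences are from RefSeq on GRCm38.p6, 5′ to 3′ on the strand of the gene, at chr6:124512371-124512620 (plus), chr6:124542360-124542609 (minus) and chr10:79890603-79890852 (plus). Start sites here are those of RefSeq, while the gene positions in this report are from GENCODE. For C1ra the 2 differ, and most of its window lies inside the gene as GENCODE places it, from 124512405.
C1ra: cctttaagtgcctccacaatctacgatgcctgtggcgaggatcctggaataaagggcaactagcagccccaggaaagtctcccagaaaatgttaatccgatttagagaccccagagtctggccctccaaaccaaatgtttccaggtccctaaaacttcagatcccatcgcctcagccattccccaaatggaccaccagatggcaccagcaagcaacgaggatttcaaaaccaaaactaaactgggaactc
C1s1: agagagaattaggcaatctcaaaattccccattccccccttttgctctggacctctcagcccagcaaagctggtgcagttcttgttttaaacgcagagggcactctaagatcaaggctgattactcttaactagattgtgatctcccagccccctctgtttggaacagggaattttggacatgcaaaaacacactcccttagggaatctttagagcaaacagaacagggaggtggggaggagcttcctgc
Cfd: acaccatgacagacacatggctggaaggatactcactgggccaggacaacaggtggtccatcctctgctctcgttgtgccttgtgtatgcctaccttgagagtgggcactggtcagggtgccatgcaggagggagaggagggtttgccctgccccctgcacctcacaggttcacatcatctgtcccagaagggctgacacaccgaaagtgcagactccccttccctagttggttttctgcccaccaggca
Capitals would mark a match to an interferon response element core (GAAA, any 2 bases, GAAA), an interferon-gamma activated site (TTCNNNGAA), an NF-kB site core (GGG, any 2 bases, TTTCC) or a C/EBP site (TTGCGCAA) on either strand, and these windows hold none. C1s1 has a second RefSeq window, at chr6:124542322-124542571 (minus), which is not shown and also holds no match. Promoter windows were found for 5 of the 9 genes. The window of C5ar1, from 16259339 to 16259588 on the minus strand, also lies mostly inside the GENCODE gene, which ends at 16259540. Among the 5 windows, that of C3ar1 held 1 match, to the NF-kB core, which begins 14 bases before its RefSeq start site. Of all 32851 promoter windows of this length, 2.98% hold the interferon response element core, 7.02% the interferon-gamma activated site, 1.41% the NF-kB core and 0.164% the C/EBP site.

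C4b and C2 form the C3 convertase of the classical and lectin routes, C4b as the anchor on the surface and C2 as the protease. C4b had 548 and 615 TPM in the HFD+Cana mice, against 703 and 635 TPM in the HFD mice. All HFD+Cana values were below all HFD values, with means of 581 ± 47.3 TPM in HFD+Cana and 669 ± 48.0 TPM in HFD (SD, n = 2 each). The log2 difference was -0.20 (standard error 0.11, adjusted p = 0.575 from limma), with -0.12 without HFD+Cana mouse 1 and -0.13 without HFD mouse 1. C4b lies on chromosome 17 from 34728380 to 34743882, and 48.3% of its 31-base words also occur in C4a, the gene of the sex-limited protein 65209 bases away. C4a had 0.933 and 1.91 TPM in HFD+Cana and 2.00 and 1.19 TPM in HFD, and adding it to C4b left the log2 difference at -0.20. C2 had 68.8 and 102 TPM in HFD+Cana, against 54.6 and 71.0 TPM in HFD. Mouse 1 of HFD+Cana lay just below mouse 2 of HFD, so the groups overlapped, with a log2 difference of 0.42 (standard error 0.23, limma adjusted p = 0.570). The 95% interval of the C2 difference ran from -0.19 to 1.03, which includes 0. Without single mice the C2 difference was 0.70 (HFD+Cana mouse 1), 0.14 (HFD+Cana mouse 2), 0.23 (HFD mouse 1) and 0.61 (HFD mouse 2).

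C3, the protein on which all routes converge, had 718 and 670 TPM in HFD+Cana, against 795 and 591 TPM in HFD. Both HFD+Cana values lay between the HFD values, and the means were 694 ± 34.1 TPM in HFD+Cana and 693 ± 145 TPM in HFD (SD, n = 2 each). The log2 difference was 0.017 with a 95% interval from -0.43 to 0.46, so differences within that range in either direction are not excluded. The direction of the C3 difference turned on single mice, with -0.033 without HFD+Cana mouse 1 and -0.20 without HFD mouse 2. C3 lies on chromosome 17 from 57203970 to 57228136, and none of its 31-base words occurs in another gene. The genes of at least 10 TPM on average whose centred values over the 4 mice were nearest to those of C3 were Ppp5c, Cers6 and Tbc1d10a, at a root mean square difference of 0.0137, 0.0181 and 0.0184 on the log2 scale among 8566 genes. For C1ra the nearest were Ptbp2, Rsrp1 and Hnrnpdl, at 0.0123, 0.0156 and 0.0223. With only 4 mice and 8566 genes compared, near profiles can arise without any link between genes. No reference distance was computed, so no shared regulation is read from these neighbours.

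Cfb and Cfp belong to the alternative route. Cfb encodes factor B, the protease subunit of the alternative C3 convertase, and had 368 and 401 TPM in the HFD+Cana mice, against 539 and 473 TPM in the HFD mice. The groups did not overlap, with means of 384 ± 23.2 TPM in HFD+Cana and 506 ± 46.6 TPM in HFD (SD, n = 2 each), and the log2 difference was -0.39 (standard error 0.11, unadjusted p = 0.0187, adjusted p = 0.362 from limma). Without 1 mouse the difference ranged from -0.49 to -0.30, and the unadjusted p was no longer under 0.05 without HFD+Cana mouse 1 or without HFD mouse 1. Cfp encodes properdin, which stabilises the alternative convertase. It had 129 and 83.1 TPM in HFD+Cana, against 109 and 88.0 TPM in HFD, and the values of HFD lay within those of HFD+Cana. Its log2 difference was 0.08 (95% interval from -0.55 to 0.72), and was -0.23 without HFD+Cana mouse 1 and -0.07 without HFD mouse 2. Cfp lies on chromosome X from 20925454 to 20931555.

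Cfb and C2 are related proteases whose genes stand 85 bases apart in the class III region of the MHC, C2 from 34862604 to 34898265 and Cfb from 34856374 to 34862518 on chromosome 17, on the same strand. In spite of this position, C2 had higher and Cfb lower mean values in HFD+Cana. The ratio of C2 to Cfb was 0.187 and 0.253 in HFD+Cana, against 0.101 and 0.150 in HFD, without overlap. This ratio was chosen after the values were seen and carries no test. The annotated gene Gm20547 spans both and holds 75.5% of the 31-base words of Cfb and 40.2% of those of C2. It was listed at 0 and 0.377 TPM in HFD+Cana and at 0 and 0.0480 TPM in HFD, so little of the estimated expression was assigned to it.

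**Figure D2:**
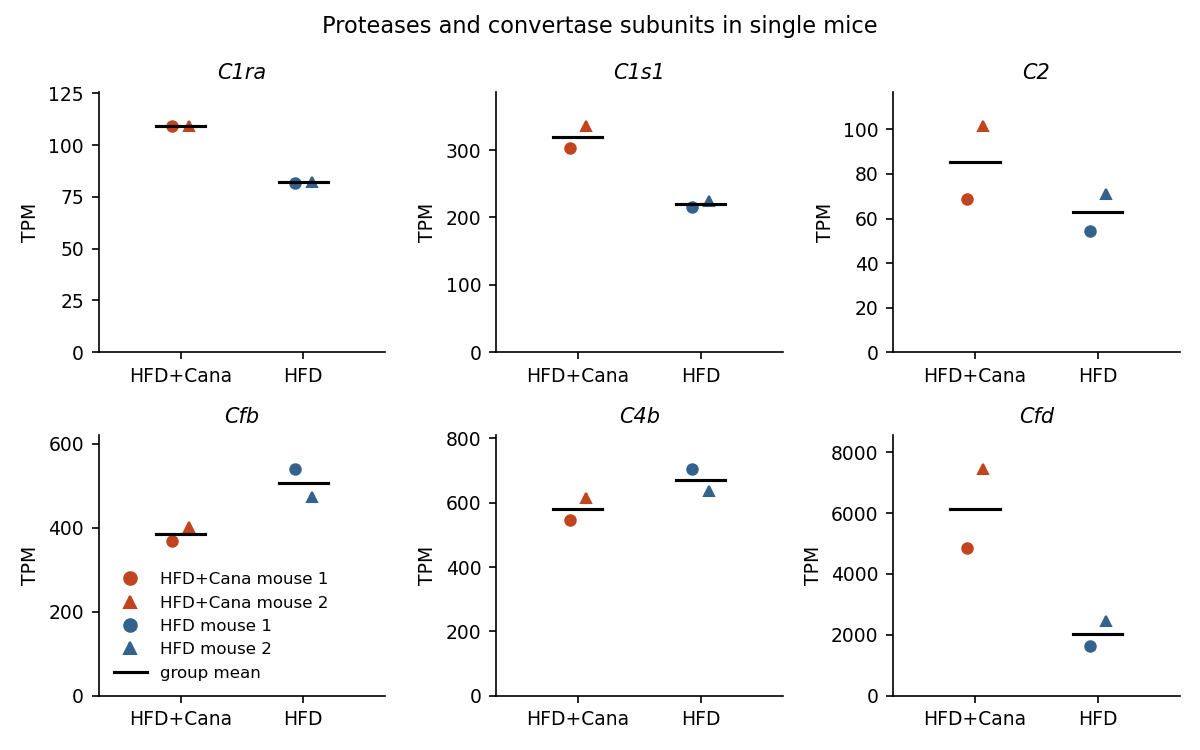
Levels (TPM, axes from 0) of C1ra, its partner C1s1, C2, its neighbour Cfb, C4b and Cfd in single mice, HFD+Cana left of HFD, with bars for group means of 2 mice. The groups are apart in all panels except C2, where 68.8 TPM in HFD+Cana lies below 71.0 TPM in HFD.

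Serping1 encodes C1 inhibitor, which removes C1r and C1s from the C1 complex and also inhibits kallikrein. It was the highest of the 9 genes, with 740 and 777 TPM in HFD+Cana, against 805 and 764 TPM in HFD. Mouse 2 of HFD+Cana lay between the HFD mice, and the means were 758 ± 26.3 TPM in HFD+Cana and 785 ± 28.5 TPM in HFD (SD, n = 2 each). The log2 difference of -0.05 had a 95% interval from -0.31 to 0.21. Serping1 lies on chromosome 2 from 84765387 to 84775444, with no 31-base word in another gene.

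The receptors of the anaphylatoxins, small fragments of C3 and C5 that attract and activate leukocytes, differed more between mice of 1 group than between groups. C3ar1 had 46.4 and 21.1 TPM in the HFD+Cana mice, against 37.5 and 23.2 TPM in the HFD mice. Mouse 1 of each group was high and mouse 2 low, and the HFD values lay within those of HFD+Cana, with a log2 difference of 0.08 (95% interval from -1.05 to 1.22). C5ar1 had 58.7 and 28.1 TPM in HFD+Cana, against 65.5 and 33.3 TPM in HFD. It showed the same split, with a log2 difference of -0.20 (95% interval from -1.43 to 1.04). Leaving out HFD+Cana mouse 1 turned C3ar1 to -0.47, and leaving out HFD mouse 2 turned it to -0.25. For C5ar1 the value was 0.32 without HFD+Cana mouse 2 and 0.28 without HFD mouse 1. C3ar1 lies on chromosome 6 from 122847138 to 122856161 and C5ar1 on chromosome 7 from 16246743 to 16259540. C5ar2, the second C5a receptor 2588 bases from C5ar1, was also highest in mouse 1 of each group, with 3.31 and 1.66 TPM in HFD+Cana and 5.25 and 2.89 TPM in HFD.

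The sum of macrophage markers was split between the mice in the same way. The sum of 11 macrophage markers without C1q genes was 3591 and 2151 TPM in HFD+Cana, against 2871 and 2086 TPM in HFD. Most of it was Lyz2, with 2484 and 1460 TPM in HFD+Cana, against 1873 and 1376 TPM in HFD. The size of the split varied by marker. Adgre1 had a ratio of mouse 1 to mouse 2 of 2.00 in HFD+Cana and 1.60 in HFD. Mertk had 39.7 and 39.1 TPM in HFD+Cana and 44.0 and 34.1 TPM in HFD. Mouse 1 exceeded mouse 2 by a ratio of 1.67 in HFD+Cana and 1.38 in HFD for the sum of 11 markers. The ratios were 2.20 and 1.62 for C3ar1, 2.09 and 1.97 for C5ar1 and 1.56 and 1.23 for Cfp. For C1ra the ratios were 1.001 and 0.998, and for Serping1 0.952 and 1.05. As a share of the macrophage sum, and so mainly relative to Lyz2, C3ar1 was 1.29% and 0.979% in HFD+Cana, against 1.31% and 1.11% in HFD. C5ar1 was 1.63% and 1.31% in HFD+Cana, against 2.28% and 1.60% in HFD, and Cfp was 3.60% and 3.86%, against 3.79% and 4.22%. All of these shares overlapped between groups. Of the 14 macrophage markers, 2 were higher and 0 lower in HFD+Cana at an unadjusted p under 0.05, against 5.32% and 5.45% of all genes tested. After adjustment 0 of the macrophage markers passed in limma. Neutrophils also carry C5ar1, and 8 neutrophil markers summed to 28.9 and 28.5 TPM in HFD+Cana, against 132 and 59.2 TPM in HFD. Among them S100a8 had 13.7 and 22.5 TPM in HFD+Cana, against 117 and 53.7 TPM in HFD, where it made up most of the sum. The defining markers Ly6g and Ngp were listed at 0 in all 4 mice. Of the 4 neutrophil markers tested, 1 had a positive and 3 a negative difference. Only S100a8 was lower at an unadjusted p under 0.05 and 0 were higher, against 5.45% and 5.32% of all genes tested. After adjustment 0 passed in limma. The part of macrophages and neutrophils in the receptor values was not tested.

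**Figure D3:**
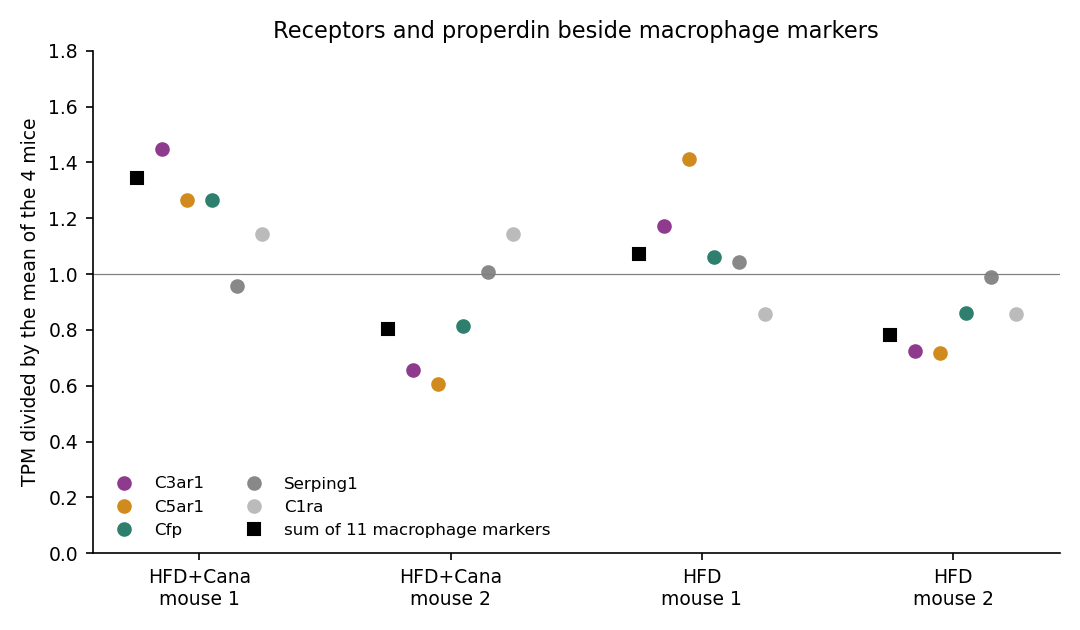
Level of C3ar1, C5ar1, Cfp, Serping1 and C1ra, and the sum of 11 macrophage markers, in each mouse, divided by the mean of the 4 mice. Mouse 1 of each group is above mouse 2 for both receptors, Cfp and the marker sum, while C1ra differs between groups and not within them.

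Of the other complement genes on the list, 49 of 50 were in the table and 33 had a mean of at least 1 TPM. In limma 0 passed an adjusted p of 0.05 in either direction. At an unadjusted p under 0.05, 4 of the 33 were higher and 4 lower in HFD+Cana, against 5.32% and 5.45% of all genes tested. The median log2 difference of the 33 genes was 0.0065, against 0.019 over all genes tested. Cfd, the gene of adipsin, which cleaves factor B within the alternative convertase, had the largest difference of the list. It had 4838 and 7433 TPM in HFD+Cana, against 1620 and 2445 TPM in HFD, a ratio of means of 3.02. The groups were well apart, yet the log2 difference of 1.59 (standard error 0.31, unadjusted p = 0.00453) did not pass after adjustment (adjusted p = 0.264 from limma), and it ranged from 1.28 to 1.90 without 1 mouse. Relative to Adipoq, an adipocyte gene, Cfd stood at 1.23 and 1.63 in HFD+Cana, against 0.444 and 0.593 in HFD. The ratio of Cfd to Cfb, enzyme to substrate, was 13.1 and 18.5 in HFD+Cana and 3.01 and 5.17 in HFD. Adipocyte markers as a whole summed to 44250 and 52586 TPM in HFD+Cana and 47038 and 49973 TPM in HFD, an overlap, and these markers were abundant in all 4 mice. By gene, 7 of 10 adipocyte markers had a negative difference. Of the 10, 4 were apart with HFD+Cana lower and 0 with HFD+Cana higher, against 19.8% and 24.3% of all genes tested. Of these markers 1, Plin1, was lower before adjustment (p under 0.05), against 5.45% of all genes tested, and not after it in limma. Their part in the Cfd values was not tested.

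Among initiating genes, the C1q chains C1qa and C1qb were the highest, with 733 and 399 TPM of C1qa in HFD+Cana against 603 and 410 TPM in HFD, split between mice like the macrophage sum. C1qb had 707 and 381 TPM in HFD+Cana, against 615 and 401 TPM in HFD. Colec12, a scavenger receptor with a collectin domain, had 43.0 and 50.7 TPM in HFD+Cana, against 30.8 and 30.4 TPM in HFD (log2 difference 0.59, adjusted p = 0.246 from limma). Fcna, the ficolin of mouse macrophages, had 90.7 and 52.1 TPM in HFD+Cana, against 39.7 and 43.0 TPM in HFD, a log2 difference of 0.72 that was 0.33 without HFD+Cana mouse 1 and 1.11 without HFD+Cana mouse 2. C1rl, a C1r-like protease, was lower, with 8.88 and 10.5 TPM in HFD+Cana, against 13.7 and 13.5 TPM in HFD. Higher and lower values thus both occurred among the initiating genes, and Colec12, Fcna and C1rl did not pass after adjustment.

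Among the regulators of this list, which does not hold Serping1, Cd59a was the highest and Clu the second by mean level. Cd59a, which blocks the membrane attack complex, had 266 and 284 TPM in HFD+Cana, against 360 and 362 TPM in HFD. Its log2 difference was -0.39 (standard error 0.086, adjusted p = 0.274 from limma), a size close to that of Cfb. Clu, clusterin, had 210 and 276 TPM in HFD+Cana and 274 and 219 TPM in HFD, with full overlap.

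Of the terminal genes, C6 and C7, subunits of the membrane attack complex, were the highest. C6 had 25.1 and 37.8 TPM in HFD+Cana, against 55.7 and 50.3 TPM in HFD, a log2 difference of -0.76 (standard error 0.21, limma adjusted p = 0.346). The C6 difference was -0.48 without HFD+Cana mouse 1 and -1.05 without HFD+Cana mouse 2. C7 had 40.3 and 39.2 TPM in HFD+Cana and 24.6 and 81.0 TPM in HFD. Of the receptor genes, Calr, a chaperone that also binds C1q, had 679 and 519 TPM in HFD+Cana and 815 and 626 TPM in HFD, and Itgb2, the common chain of the complement receptor integrins, had 99.2 and 63.3 TPM and 91.0 and 67.9 TPM. Cd93, once described as a C1q receptor, had 47.9 and 43.8 TPM in HFD+Cana, against 59.9 and 53.0 TPM in HFD (log2 difference -0.29, adjusted p = 0.446 from limma).

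**Figure D4:**
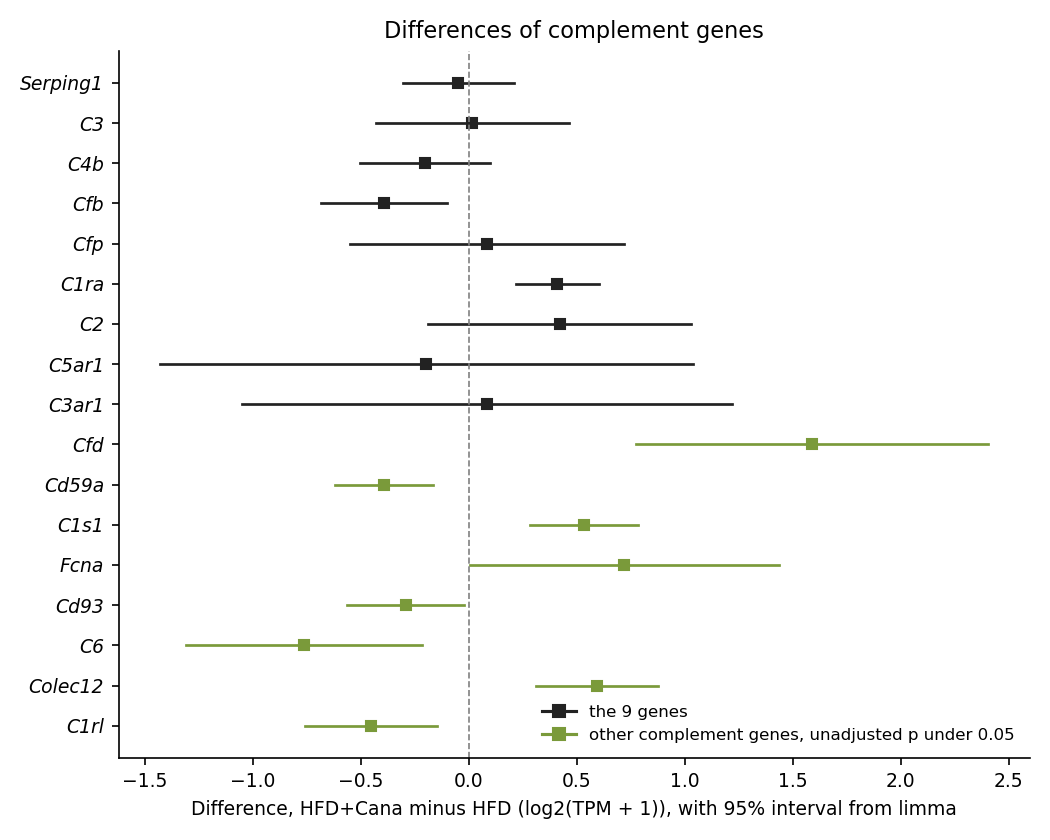
Differences between HFD+Cana and HFD (log2(TPM + 1), 2 mice each) with 95% intervals from limma, for the 9 genes (black) and for the 8 other complement genes with an unadjusted p under 0.05 (green). Among the 9 genes the intervals of C1ra (0.22 to 0.60) and Cfb (-0.69 to -0.10) leave out 0, and no gene shown passed after adjustment.

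A further 16 genes of the list had a mean under 1 TPM and were not tested. In 14 of them the groups were apart with HFD+Cana higher, and in 0 with HFD+Cana lower. Of all 10086 genes with a mean above 0 and under 1 TPM, 18.5% were apart as higher and 10.1% as lower. They include genes known from liver, such as Hc, which encodes C5, with 0.373 and 0.423 TPM in HFD+Cana, against 0.137 and 0.0157 TPM in HFD. C9, the pore-forming subunit, had 0.458 and 0.737 TPM in HFD+Cana, against 0 and 0.0593 TPM in HFD. Cpn1, which inactivates anaphylatoxins, and Mbl2, a mannose-binding lectin, were listed at 0 in both HFD mice, as were 6 further genes of the 16. Hepatocyte markers moved with them. All 12 such markers were apart between groups with HFD+Cana higher, among them the 11 tested, against 24.3% of all genes tested. Of the 11 hepatocyte markers tested, 5 passed as higher at an adjusted p under 0.05 in limma, against 0.0435% of all genes tested. Their summed level was 129 and 171 TPM in HFD+Cana, against 6.47 and 10.3 TPM in HFD. C3, C4b, Cfb and Serping1 are also made by hepatocytes, and the part of hepatocyte RNA in their values was not tested. Albumin, the most abundant hepatocyte transcript, had 47.9 and 68.7 TPM in HFD+Cana, against 3.001 and 5.38 TPM in HFD. Mesothelial markers, of the cells that cover the surface of the depot, also had higher values. Of these, 10 of 10 were higher before adjustment (p under 0.05), against 5.32% of all genes tested, and 0 after it in limma. Their summed level was 188 and 319 TPM in HFD+Cana, against 59.9 and 48.1 TPM in HFD. Endothelial markers summed to 507 and 537 TPM in HFD+Cana, against 605 and 608 TPM in HFD. The part of these cell types in the complement values was not tested.

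C2, C4b, Cfb and Serping1 are known targets of interferon, and 20 interferon-induced genes were read beside them. In limma 0 passed after adjustment, and 0 were higher and 3 lower in HFD+Cana at an unadjusted p under 0.05, with a median log2 difference of -0.09. Psmb8 and Gbp2, the highest of the list by mean level, were among the lower genes. Psmb8, an immunoproteasome subunit encoded in the MHC, had 64.1 and 57.0 TPM in HFD+Cana, against 75.8 and 70.8 TPM in HFD, and Gbp2, a guanylate-binding protein, had 56.2 and 53.0 TPM, against 69.8 and 62.9 TPM. Irf1, a further interferon-induced factor and the third by level, overlapped between groups, with 53.9 and 47.7 TPM in HFD+Cana and 39.98 and 48.2 TPM in HFD. Of the 20 genes, 9 had a positive and 11 a negative difference, 2 were apart with HFD+Cana higher and 6 with HFD+Cana lower, against 24.3% and 19.8% of all genes tested.

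**Figure D5:**
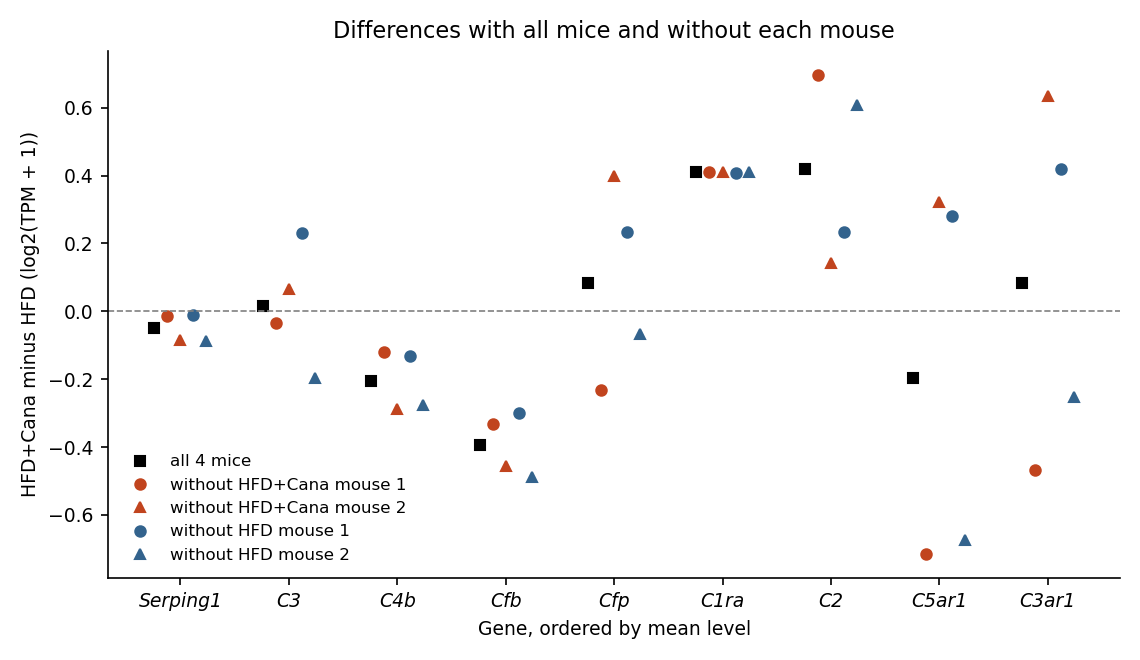
Difference between HFD+Cana and HFD (log2(TPM + 1)) of each of the 9 genes with all 4 mice and without each mouse in turn. C1ra stays at 0.41, Cfb and C4b stay below 0 and C2 above 0, while C3, Cfp, C3ar1 and C5ar1 lie on both sides of 0 depending on the mouse left out.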

How the data were processed

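RNA of gWAT was extracted and sequenced from 2 HFD+Cana and 2 HFD mice after poly(A)-selecting, strand-specific library preparation, with reads in pairs. Per the methods, nf-core/rnaseq 3.12.0 with default settings under nextflow 23.10.0 was used, and the authors deposited TPM per gene. GRCm38, mm10 and R 4.3.2 are listed in the submitters' processing notes, with the annotation release not given in the sources used here. Each column sums to 1000000, and 19884 to 21129 genes were above 0. Sequencing depth is unknown, so no counting interval was computed. Over all genes, limma called 6 higher and 0 lower after Benjamini-Hochberg adjustment (p under 0.05), and 733 and 751 before it. The paper names no test for these data.

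Genes averaging 1 TPM or more entered limma 3.58.1 (lmFit, eBayes with trend, R 4.3.3) on log2(TPM + 1), with the group as the only term. The fit was tested on simulated data. The 9 genes, the gene lists and the motifs were chosen with earlier results of these data known. Named are the 9 genes, other complement genes with an unadjusted p under 0.05, the 2 highest of each role, close copies and C5, and the 3 highest interferon genes. Ratios between genes, C9, Cpn1, Mbl2, S100a8, Plin1, Dcn, Lyz2, Adgre1, Mertk and albumin were chosen after their values were seen. Some genes of the lists are not reported here. Positions and 31-base words shared between genes are from GENCODE M21. Python 3.11.15 and matplotlib 3.10.9 made tables and plots.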

Additional observations from a re-analysis of the deposited data

How the results depend on the processing

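No gene of the 9, and none of the other complement genes, passed an adjusted p of 0.05 under any of the 14 alternatives, which were 2 other pseudocounts (0.1 and 5), 2 other filters (none, or 5 TPM on average), scaling by quantiles or by median of ratios, removal of mitochondrial genes from TPM, 2 other eBayes options (no trend, robust), the replicate block and leaving out each mouse. Over all genes the count of calls was 6, and it was 0 without a filter, with the filter at 5 TPM, with the pseudocount at 0.1 and with quantiles, 2 with a pseudocount of 5, 13 with eBayes without trend and 0 without any 1 mouse. With the replicate number as a block it was 2. The labels do not say that equal numbers share anything, and the differences between mouse 1 and mouse 2 of the groups correlated at 0.178 over 13788 genes, which share the same 4 mice. Under this block C2 was also under an unadjusted p of 0.05, as it was without HFD+Cana mouse 1. Leaving out single mice, the median of the 9 genes ranged from -0.20 to 0.23, C3 from -0.20 to 0.23, Cfp from -0.23 to 0.40, C3ar1 from -0.47 to 0.64 and C5ar1 from -0.71 to 0.32, and the other 5 genes kept their direction. The cause was not tested. With 2 mice a group, a left-out mouse leaves a group of 1 that is assumed to vary like the other. Without depth, the precision of low TPM is unknown.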
